A study of Mus musculus with 2 samples.

Results

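Interferon-stimulated genes were followed in migratory dendritic cells (DCs) of skin-draining lymph nodes. The 39 genes were chosen by name from the genes that type I interferon is known to induce and not by a limit on a measured value, although earlier results of these data were known, and all 39 were among the 18049 genes listed in the data. They were read by cell class, by mRNA cluster and by library. The cells were sorted as MHCIIhi CD11c+ B220- from skin-draining lymph nodes (skin-dLNs) of B6 mice and profiled by CITEseq, in which 12 antibodies and the 3' ends of mRNAs are counted in the same cell. One library came from unimmunized (naive) mice and 1 from mice given ovalbumin (OVA) with papain, a protease allergen, in both rear footpads 1 day earlier. For immunized mice the methods name popliteal nodes and for naive mice pooled skin-dLNs, whereas the labels name both kinds of node for each library, so immunization and lymph node site cannot be told apart. Each library is 1 sample, and no cell is tied to a mouse.

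Interferons bound to their receptor activate JAK kinases, which in turn activate transcription factors that bind the interferon-stimulated response element (ISRE) in front of their target genes. The products sense foreign RNA and DNA, degrade RNA, block translation or viral entry, or limit the signal itself. DCs are both sources and targets of type I interferon, and the response is known to aid their maturation and cross-presentation.

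The ISRE core was searched on both strands as GAAA, any 2 bases, and GAAA again in the RefSeq promoters (GRCm38.p6, 250 bases before to 50 bases after the start). A promoter was given for 31 of the 39 genes and was missing for *Oas2*, *Mx1*, *Mx2*, *Usp18*, *Rtp4*, *Dhx58*, *Zbp1* and *Parp14*. The letters were found in 17 of these 31 promoters (54.8%) and in 1079 of 27025 genes of the whole table (3.99%). The stretches shown here are those around the motif in 6 genes of different function, wholly in front of the start, 5' to 3' on the strand of the gene, with the motif in capitals. Where the motif lies on the other strand it reads TTTC, 2 bases, TTTC.
*Isg15*, chr4:156200855-156200916, minus strand: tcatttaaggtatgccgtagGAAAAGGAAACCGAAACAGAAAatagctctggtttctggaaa
*Ifit1*, chr19:34640765-34640833, plus strand: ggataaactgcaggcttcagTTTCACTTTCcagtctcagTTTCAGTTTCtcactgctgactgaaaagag
*Rsad2*, chr12:26456543-26456592, minus strand: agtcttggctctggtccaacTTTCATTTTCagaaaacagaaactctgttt
*Oas3*, chr5:120777705-120777754, minus strand: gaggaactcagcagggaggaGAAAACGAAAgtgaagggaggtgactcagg
*Bst2*, chr8:71537567-71537622, minus strand: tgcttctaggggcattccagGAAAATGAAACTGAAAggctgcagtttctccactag
*Gbp2*, chr3:142620584-142620633, plus strand: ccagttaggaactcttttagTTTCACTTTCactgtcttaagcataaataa
The *Isg15* promoter held 3 overlapping copies, those of *Ifit1* and *Bst2* held 2, and the other 3 shown held 1. No match lay in the windows of *Irf1*, *Irf7*, *Irf9*, *Ifit2*, *Oasl1*, *Oasl2*, *Cmpk2*, *Herc6*, *Ifi35*, *Ifi44*, *Ifitm1*, *Isg20*, *Samd9l* or *Xaf1*. A match is a string of letters and no evidence of binding, and a missing match says only that these letters are not in this window.

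The data held 3042 naive and 7306 papain cells with a class given by the authors from the antibody data, which were Langerhans cells (LCs, 440 and 881 cells), cDC1s (578 and 235), and CD301blo (658 and 1470), CD301bint (659 and 1827) and CD301bhi cDC2s (707 and 2893). The median depth was 10768 to 15807 UMIs per cell over the 5 naive classes and 11351 to 18290 over the papain classes, and 2 cell barcodes occurred in both libraries. The level of a gene is given in CPM, its UMIs per 1000000 UMIs summed over the cells of a class, with an exact Poisson 95% interval where one is printed. A UMI stands for 1 captured 3' end, so levels of different genes were not scaled by length. Ratios have exact conditional 95% intervals. All intervals cover counting error only, and with 1 library per condition no test between conditions was made. *Ccr7*, *Fscn1* and *Ccl22*, genes of migratory DCs, each stood at 856 CPM or more in all 10 groups. The summed T cell genes (*Cd3e*, *Cd3d*, *Trac* and *Trbc2*) were at 9.55 to 146 CPM in the naive and 8.36 to 20.5 CPM in the papain classes, with the highest value in naive cDC1s, and the summed B cell genes were at 12.9 to 63.3 and 4.59 to 31.6 CPM. The antibody classes were checked against the mRNA. Summed LC genes (*Cd207*, *Epcam* and *Cdh1*) were at 153 and 216 CPM in LCs and at 39.5 CPM or less in the other classes, summed cDC1 genes were highest in cDC1s of either library (59.0 and 33.2 CPM), though *Tlr3* had 0 UMIs in papain cDC1s, and summed cDC2 genes were at 218 to 259 CPM in naive and 129 to 153 CPM in papain cDC2s. *Mgl2*, which encodes CD301b, was at 15.2, 59.1 and 56.1 CPM in naive CD301blo, CD301bint and CD301bhi cDC2s but at 0.83, 0.48 and 1.21 CPM with papain, and *Cd209a* was at 32.2 CPM or more in naive and 1.38 CPM or less in papain cDC2s. The papain CD301b classes thus rest on the antibody signal and are not separated by *Mgl2* mRNA. Summed monocyte and macrophage genes were at 69.5 to 88.3 CPM in naive and 18.4 to 32.0 CPM in papain cDC2s. Free RNA, doublets and the cells' own RNA cannot be told apart in these values.

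Over all classes, the members with the highest levels in the naive library were *Irf1* (306 CPM), *Bst2* (113), *Gbp2* (103), *Mx1* (102) and *Ifitm2* (82.8). In the papain library they were *Irf1* (346 CPM), *Isg15* (218), *Bst2* (205), *Gbp2* (186) and *Ifitm2* (174), while *Mx1* was at 63.7 CPM.

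In the papain library, most of the well expressed members were higher than in the naive library in every class. Of the members with at least 10 CPM in the higher library, those past 1.5-fold higher with papain were 15 of 26 in LCs, 24 of 28 in cDC1s, 19 of 26 in CD301blo, 20 of 25 in CD301bint and 17 of 25 in CD301bhi cDC2s. Among all genes read in this way, 14.4%, 10.3%, 11%, 10.7% and 10.2% were past that fold in the same classes. Past 1.5-fold lower were 2 members in LCs, none in cDC1s and CD301blo cDC2s, and 1 each in CD301bint and CD301bhi cDC2s, beside 9.21%, 12.6%, 14.2%, 10.5% and 8.39% of all genes. The 2 in LCs were *Mx1* and *Ifitm1*, and the latter rests on 2 of 440 naive cells, as given with its values. The median log2 ratio of the members was 0.74 in LCs, 1.18 in cDC1s, 0.82 in CD301blo, 0.95 in CD301bint and 0.75 in CD301bhi cDC2s, whereas that of all genes lay between 0.01 and 0.09. A member that is low in naive cells can enter the count only by being high with papain, and 4 to 8 of the higher members per class had under 10 CPM in the naive library. Without cells that had a *Cd3e* or *Trac* UMI the members past 1.5-fold higher were 16, 24, 18, 21 and 17 in the same order of classes. The 5 comparisons rest on the same 2 libraries, and differences between classes in these ratios were not tested.

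**Figure D1:**
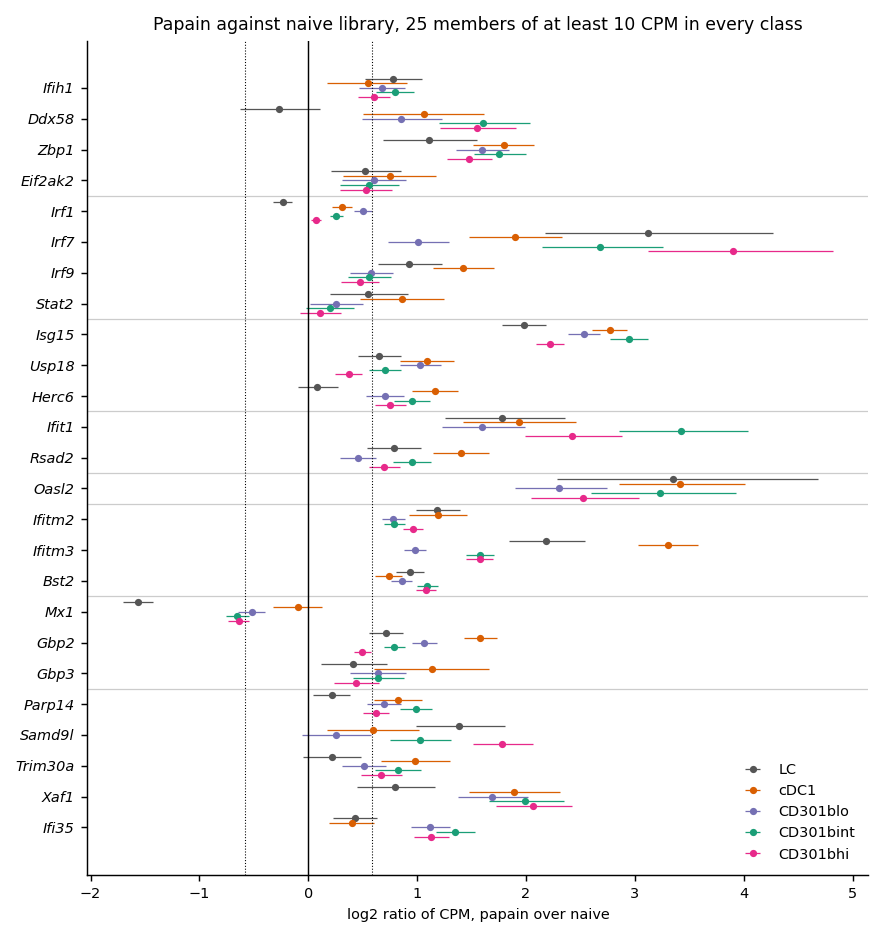
Each point is the log2 ratio of CPM of papain over naive for 1 gene in 1 class, with its 95% counting interval as a line. Genes are ordered by function and parted by grey lines, the dotted lines mark 1.5-fold in both directions, and the 25 genes are shown that in every class reached 10 CPM in 1 or both libraries. *Mx1* is the gene whose 5 points all lie below 0, from -1.57 in LCs to -0.10 in cDC1s.

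*Isg15* encodes a ubiquitin-like protein that is conjugated to other proteins and is also secreted. It stood at 40.4 CPM in naive LCs, 49.4 in cDC1s, 45.2 in CD301blo, 26.9 in CD301bint and 47.9 in CD301bhi cDC2s. With papain it stood at 159, 336, 261, 207 and 223 CPM in the same order. Every papain class was above every naive class. The ratio was 3.94-fold in LCs (log2 1.98, interval 1.78 to 2.19) and largest in CD301bint cDC2s at 7.68-fold (log2 2.94, interval 2.77 to 3.12). In naive LCs 2 cells held 76 of the 215 UMIs, in naive CD301blo cDC2s 75 of 417 and in naive CD301bhi cDC2s 96 of 547. With the 2 highest cells of each library set aside the LC ratio is larger, from 26.2 CPM in naive and 147 CPM in papain LCs. In the same way CD301blo cDC2s were at 37.1 and 253 CPM and CD301bhi cDC2s at 39.5 and 219 CPM. *Usp18*, the protease that removes ISG15 and also restrains the interferon receptor, was 1.57-fold higher in LCs, 2.13-fold in cDC1s, 2.04-fold in CD301blo, 1.63-fold in CD301bint and 1.29-fold in CD301bhi cDC2s. *Herc6*, the ligase that attaches ISG15 in the mouse, was 2.24-fold higher in cDC1s and 1.63- to 1.93-fold higher in the cDC2 classes but at 62.6 against 59.1 CPM in LCs, where the interval of the log2 ratio included 0 (-0.10 to 0.27).

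**Figure D2:**
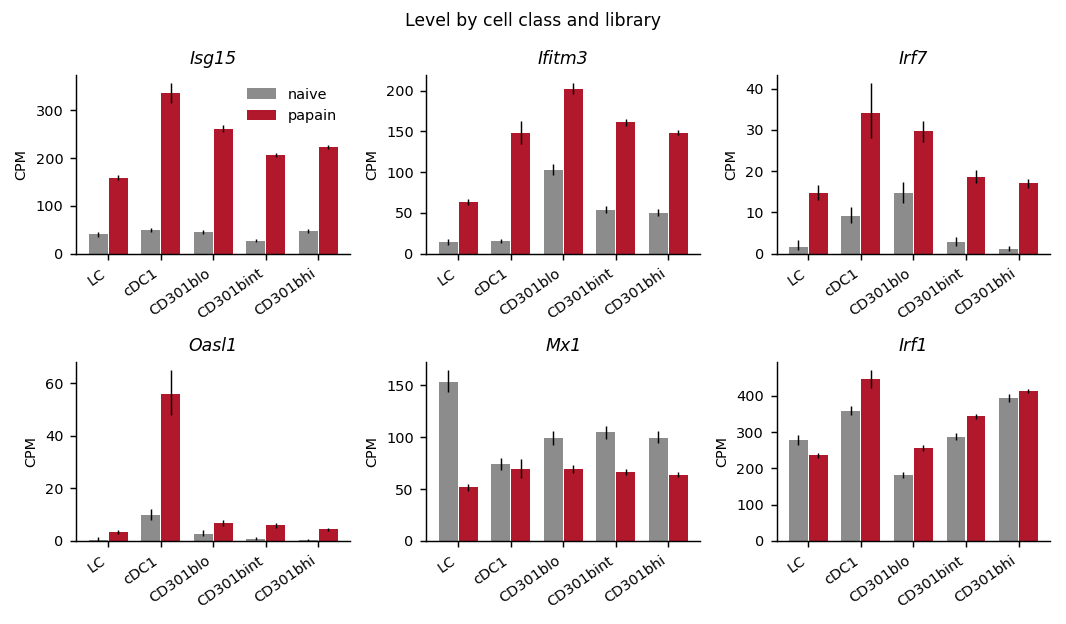
Bars give the CPM of 6 genes in the 5 classes of the naive (grey) and papain (red) library, with 95% Poisson intervals as error bars. *Isg15*, *Ifitm3* and *Irf7* are higher with papain in all 5 classes, *Oasl1* stands out in cDC1s, *Mx1* is lower in LCs and cDC2s, and *Irf1* stays within 1.5-fold in each class.

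Among the transcription factors, *Irf7*, which amplifies the production of interferon, was past 1.5-fold higher in all classes and *Irf1*, which responds mainly to interferon gamma, in none. *Irf7* was at 1.69, 9.16, 14.7, 2.90 and 1.14 CPM in naive LCs, cDC1s, CD301blo, CD301bint and CD301bhi cDC2s, and at 14.7, 34.2, 29.6, 18.5 and 17.0 CPM with papain. The log2 ratio was 1.90 in cDC1s (interval 1.48 to 2.33), 1.01 in CD301blo (interval 0.73 to 1.29) and 3.90 in CD301bhi cDC2s (interval 3.12 to 4.82). The naive CD301blo level came from few cells. Of its 136 UMIs 2 cells held 58, and outside mRNA clusters 1.5 and 1.7, described with the clusters, *Irf7* was at 3.41 CPM in naive CD301blo (21 UMIs), 1.51 in CD301bint (13 UMIs) and 0.768 in CD301bhi cDC2s (8 UMIs). *Irf1* had the highest level of all members over the whole of either library, at 278, 359, 181, 288 and 394 CPM in the naive classes and 236, 446, 256, 343 and 413 CPM in the papain classes. *Irf9* was 1.90-fold higher in LCs and 2.69-fold in cDC1s, and 1.39- to 1.49-fold higher in the cDC2 classes. *Stat2* was past 1.5-fold in cDC1s (1.82-fold), and its intervals in CD301bint and CD301bhi cDC2s included 0.

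Of the sensors, *Zbp1*, which binds Z-form nucleic acids and can start necroptosis, was 2.15-fold higher in LCs and 2.79- to 3.47-fold higher in the other 4 classes. It reached 74.5 CPM in papain cDC1s from 21.5 CPM in naive cDC1s. *Ddx58*, which encodes the RNA sensor RIG-I, was higher in the cDC1 and cDC2 classes by 1.80- to 3.04-fold, whereas in LCs it was at 15.8 CPM in the naive and 13.1 CPM in the papain library, with an interval that includes 0 (log2 -0.27, -0.63 to 0.11). Naive LCs already held more *Ddx58* than any other naive class. *Ifih1*, which encodes the long-RNA sensor MDA5, was 1.46- to 1.74-fold higher over the 5 classes, and *Eif2ak2*, the kinase PKR that halts translation, 1.44- to 1.68-fold. *Dhx58*, a regulator of the other RNA helicases, reached 10 CPM in papain cDC1s alone, with 11.7 against 2.53 CPM.

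Of the IFIT and nucleotide effectors, 2 reached 10 CPM in at least 1 class and 4 did not. *Ifit1*, which binds foreign RNA caps, was 3.03- to 10.7-fold higher, at 2.52 to 7.59 CPM in the naive and 20.1 to 26.9 CPM in the papain classes. *Rsad2*, which encodes viperin, was 1.37- to 2.65-fold higher, with the largest ratio in cDC1s. *Ifit2*, *Ifit3*, *Cmpk2* and *Isg20* stayed under 10 CPM in all 10 groups. *Ifit3* had 0 UMIs in naive and 2 in papain cDC1s, so no ratio is given for that class. *Ifit3b* and *Oas1g*, near-identical neighbours of *Ifit3* and *Oas1a*, share sequence with them, as do *Trim30d* and *Gbp2b* with *Trim30a* and *Gbp2*, so the split of reads within these pairs is uncertain. *Oas1g* was at 3.90 to 17.7 CPM in the naive classes and 22.1 to 37.8 CPM with papain, far above *Oas1a*.

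Active enzymes of the OAS family make the second messenger that activates RNase L. *Oasl2* was at 1.32, 3.58, 5.74, 2.03 and 3.24 CPM in the naive classes and 13.4, 38.1, 28.4, 19.0 and 18.6 CPM with papain. The ratio was 10.2-fold in LCs, from only 7 naive UMIs (log2 interval 2.28 to 4.68), and 10.6-fold in cDC1s. *Oasl1*, a translational repressor of IRF7, was highest in cDC1s, with 10.0 CPM in naive and 56.0 CPM in papain cDC1s (interval 47.9 to 65.0). The other papain classes lay between 3.38 and 6.81 CPM and the other naive classes between 0.263 and 2.82 CPM. *Oas3* was 4.92-fold higher in cDC1s, from 27 naive and 43 papain UMIs, and *Oas1a* and *Oas2* did not exceed 2.28 CPM in any class.

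Of the membrane proteins that block viral entry or release, *Ifitm3* was at 13.9 CPM in naive LCs, 15.1 in cDC1s, 103 in CD301blo, 54.2 in CD301bint and 49.9 in CD301bhi cDC2s. With papain it was at 63.1, 148, 203, 161 and 149 CPM. Of the 2080 UMIs of naive cDC2s, 1534 lay in mRNA cluster 1.5, which had 363 CPM of summed monocyte and macrophage genes. Outside it *Ifitm3* was at 33.5, 18.4 and 15.02 CPM in naive CD301blo, CD301bint and CD301bhi cDC2s, close to naive LCs and cDC1s in the last of these. In naive LCs 2 cells held 49 of 74 UMIs, and in naive cDC1s 2 cells held 68 of 143. With these UMIs set aside *Ifitm3* was at 4.70 CPM in naive LCs and 7.90 CPM in naive cDC1s. Both values lie below the 15.02 CPM of naive CD301bhi cDC2s outside cluster 1.5. The papain cDC1s reached the level of papain CD301bhi cDC2s. The ratio was 9.85-fold in cDC1s (log2 3.30, interval 3.03 to 3.58) and 1.97-fold in CD301blo cDC2s. With the 2 highest cells of each library set aside the cDC1 ratio is larger, from 7.90 CPM in naive and 139 CPM in papain cDC1s. *Ifitm2* was 1.72- to 2.28-fold and *Bst2*, the tether of budding virions, 1.67- to 2.13-fold higher over the 5 classes. *Ifitm1* was at 10.7 CPM (57 UMIs) in naive and 1.74 CPM (32 UMIs) in papain LCs, but 2 of the 440 naive cells held 50 of the 57 UMIs. With the 2 highest cells of each library set aside it was at 1.32 and 1.58 CPM, and the lower level with papain was lost. It stayed under 10 CPM in the other classes.

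The GTPases were split. *Gbp2*, which attacks pathogen vacuoles, was at 74.7, 77.7, 89.5, 111 and 143 CPM in the naive classes and 122, 232, 188, 192 and 202 CPM with papain. The naive order from LCs to CD301bhi cDC2s was not kept with papain, where cDC1s were highest. *Gbp3* was 1.33- to 2.20-fold higher. *Mx1*, an antiviral GTPase that is defective in most laboratory strains including B6, was at 154, 74.1, 98.9, 105 and 99.7 CPM in the naive and 51.8, 69.3, 69.0, 66.7 and 63.9 CPM in the papain library. It was 2.96-fold lower in LCs (log2 -1.57, interval -1.70 to -1.43), 1.43- to 1.57-fold lower in the cDC2 classes, and in cDC1s its interval included 0 (log2 -0.10, -0.33 to 0.13). *Mx2* and *Gbp7* did not reach 10 CPM in any class.

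Among the remaining members, *Xaf1*, an antagonist of the apoptosis inhibitor XIAP, was 1.74-fold higher in LCs and 3.23- to 4.18-fold higher in the other classes. *Samd9l*, a restriction factor of poxviruses, was 3.44-fold higher in CD301bhi and 1.19-fold in CD301blo cDC2s. In naive cDC2s it was at 28.0 CPM in cluster 1.5, 34.2 CPM in cluster 1.7 and 11.8 CPM or less in the other clusters. Of the cells in clusters 1.5 and 1.7, 58.1% and 68% were CD301blo. Why the *Samd9l* ratios of the classes differ was not tested. *Ifi35* was 2.18- to 2.55-fold higher in the 3 cDC2 classes and 1.32- to 1.34-fold in cDC1s and LCs. *Parp14*, an ADP-ribosyltransferase, and *Trim30a* were past 1.5-fold in 4 and 3 classes, in neither case in LCs. *Rtp4* reached 11.4 CPM in papain CD301blo cDC2s from 3.79 CPM, and *Ifi44* was at 1.63 CPM or less in every class. Counted over the classes, 9 members were past 1.5-fold higher in all 5, namely *Zbp1*, *Irf7*, *Isg15*, *Ifit1*, *Oasl2*, *Ifitm2*, *Ifitm3*, *Bst2* and *Xaf1*. Of the 25 members with at least 10 CPM in the higher library of every class they made up 9, and of 6483 such genes in all 123 (1.9%) did so. Of these 9, *Zbp1*, *Irf7*, *Ifit1*, *Oasl2* and *Xaf1* were under 10 CPM in at least 1 naive class and there entered the count only through the papain library. The ISRE letters were found in 5 of the 8 of them with a promoter in the table and in 12 of the other 23.

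The rest of the pathway was read from lists chosen with earlier results of these data known. Of 10 interferon ligand genes only *Ifnk* was listed in the data, at 0.53 CPM or less in every class. Of the 12 receptor and JAK-STAT genes 11 had at least 10 CPM, and their median log2 ratio of papain over naive lay between 0.00 and 0.24 over the 5 classes, with at most 1 past 1.5-fold higher and at most 1 lower in each. *Ifngr1*, a chain of the interferon gamma receptor, was lower in cDC1s (52.8 against 23.1 CPM) and CD301blo cDC2s (67.8 against 30.2 CPM), and *Socs1*, an inhibitor of JAKs, was lower in LCs (199 against 104 CPM). Past 1.5-fold higher were *Socs3*, another inhibitor of the pathway, in LCs (16.2 against 34.4 CPM) and CD301bint cDC2s (34.2 against 55.1 CPM), and *Ifngr2*, the second chain of that receptor, in cDC1s (65.8 against 98.9 CPM). Of 10 genes that induce interferon, 7 had at least 10 CPM, and *Tmem173*, which encodes the DNA sensing adaptor STING, was past 1.5-fold higher in LCs, cDC1s, CD301blo and CD301bint cDC2s. The only other one past 1.5-fold higher was *Ticam1* in cDC1s (17.2 against 28.0 CPM), and none was past 1.5-fold lower. A second list of 34 interferon-induced genes had 10 of 19 past 1.5-fold higher in LCs, 14 of 24 in cDC1s, 12 of 24 in CD301blo, 13 of 22 in CD301bint and 11 of 20 in CD301bhi cDC2s, and 0 to 4 lower. The counts of this list and of the receptor and inducer lists are to be read beside all genes. Of these 14.4%, 10.3%, 11%, 10.7% and 10.2% were higher and 8.39% to 14.2% lower. *Ifi27l2a* was at 98.5 against 359 CPM in CD301blo cDC2s and 31.9 against 272 CPM in cDC1s. *Cxcl9*, a chemokine induced by interferon gamma, was lower in CD301blo cDC2s (62.4 against 8.64 CPM). It was also past 1.5-fold lower in cDC1s (28.6 against 8.14 CPM) and CD301bint cDC2s (14.6 against 9.59 CPM). The others past 1.5-fold lower were *Ly6e* in all classes but CD301bhi cDC2s, *Cxcl10* in LCs and cDC1s, *Gbp4* in LCs and *Ifi203* in cDC1s.

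Classes of the same library were compared next. Here too a member that is low in 1 group can enter a count only through the group where it is high. In the naive library 5 members were past 1.5-fold higher and 4 lower in LCs than in cDC2s, of 23 with at least 10 CPM, beside 11.6% and 13.8% of all genes. *Ifitm3* (4.82-fold), *Ifitm2* (2.51-fold), *Zbp1* and *Gbp2* were lower in LCs, and *Ddx58* (2.31-fold), *Ifitm1*, *Xaf1*, *Herc6* and *Mx1* were higher. Without clusters 1.5 and 1.7 the log2 ratio of *Ifitm3* was -0.59 instead of -2.27, and *Ifitm1* turned from 1.00 to -1.80 with the UMIs of the 2 highest cells of each class set aside. The -0.59 of *Ifitm3* keeps 2 naive LCs that held 49 of its 74 UMIs. With these UMIs set aside LCs were at 4.70 CPM, against 20.9 CPM in all naive cDC2s outside clusters 1.5 and 1.7. With papain none of 25 was past 1.5-fold higher in LCs and 6 were lower, beside 6.8% and 6.02% of all genes, and *Irf1* and *Oasl2* joined *Ifitm3*, *Ifitm2*, *Zbp1* and *Gbp2* on the lower side. The median log2 ratio of LCs over cDC2s was 0.04 without and -0.23 with papain, and that of all genes 0.01 and 0.02.

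For cDC1s against cDC2s, 2 of 21 members were past 1.5-fold higher and 4 lower in the naive library, beside 11.9% and 17.2% of all genes. With papain 7 of 28 were higher and 3 lower, beside 9.66% and 16.7%. Of these *Oasl1*, *Oas3* and *Dhx58* reached 10 CPM only through cDC1s, as did *Oasl1* in the naive library. *Oasl1* was 8.16-fold higher in naive cDC1s and 10.5-fold higher in papain cDC1s. The other member higher in naive cDC1s was *Ifi35*, at 66.5 CPM against 27.9 to 34.6 CPM in the naive cDC2 classes. With papain the others higher in cDC1s were *Oas3* (2.55-fold), *Dhx58* (2.10-fold), *Oasl2* (1.86-fold), *Irf7* (1.73-fold), *Irf9* (1.62-fold) and *Herc6* (1.54-fold). Of these *Irf9* and *Herc6* were read in the naive library and were not past 1.5-fold there. *Oas3*, *Dhx58*, *Oasl2* and *Irf7* were under 10 CPM in both naive groups and were not read, so their absence from the naive count is no result. *Irf7* was at 9.16 CPM in naive cDC1s and 5.78 CPM in naive cDC2s. *Ifitm2* was lower in cDC1s in both libraries, by 3.54-fold and 2.80-fold, and so were *Gbp3* and *Ifih1*. *Ifitm3* was 4.46-fold lower in naive cDC1s but near the level of cDC2s with papain (log2 -0.13, interval -0.27 to 0.01). Without clusters 1.5 and 1.7 the naive log2 ratio of cDC1s over cDC2s was -0.47 instead of -2.16. This value keeps 2 naive cDC1s that held 68 of 143 *Ifitm3* UMIs. With these UMIs set aside cDC1s were at 7.90 CPM, against 20.9 CPM in all naive cDC2s outside both clusters. The median log2 ratio of cDC1s over cDC2s was -0.13 for the members and -0.08 for all genes in the naive library, and 0.27 and -0.12 in the papain library.

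Within the cDC2s, CD301bhi against CD301blo cells had 3 of 22 members past 1.5-fold higher and 3 lower in the naive library, beside 5.02% and 9.53% of all genes, and 2 of 26 higher and 3 lower with papain, beside 4.28% and 3.99%. *Irf1* was higher in CD301bhi cells in both, by 2.17-fold and 1.61-fold. *Usp18* (1.80-fold) and *Gbp2* (1.60-fold) were higher in naive and *Samd9l* (2.35-fold) in papain CD301bhi cells. *Irf7* was lower in CD301bhi cells, 12.9-fold in the naive and 1.74-fold in the papain library. Without clusters 1.5 and 1.7 the naive log2 ratio was -2.15 instead of -3.69, with both classes under 10 CPM. *Ifitm3* (2.06-fold) and *Xaf1* (1.60-fold) were lower in naive CD301bhi cells, and *Rtp4* (1.65-fold) and *Oasl2* (1.52-fold) were lower in papain CD301bhi cells. *Xaf1* was counted at 10.1 CPM in naive CD301blo cells. With their 2 highest cells set aside it was at 8.99 CPM, under the minimum of 10 CPM, and was no longer counted. Without mRNA clusters 1.5 and 2.4, described next, 3 log2 ratios of the papain library had the other sign, at 0.06 for *Irf7*, 0.27 for *Rtp4* and 0.26 for *Oasl2*.

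The deposited annotation divides the cDC2s of each library apart, into 7 naive and 9 papain mRNA clusters, and is not the joint division of both libraries that the study describes. These were made from the same mRNA values, so that differences between them are descriptions. Cluster 2.4, with 671 cells of which 78.5% were CD301blo, had the highest level of 16 of the 29 members that reached 10 CPM in a papain cluster, beside 12.3% of all such genes. There *Isg15* was at 602 CPM and the next cluster was at 298. *Irf7* was at 63.5 against 29.2, *Oasl2* at 60.3 against 25.3, *Ifitm3* at 339 against 203 and *Rtp4* at 25.8 against 11.2 CPM. Cluster 2.7, of which 50.7% were CD301blo, was lowest for 19 of the 29 (17.2% of all genes), with *Isg15* at 41.2 and *Irf7* at 3.12 CPM. Cluster 2.9 was highest for *Mx1* alone, at 158 CPM. The summed members ranged from 1215 CPM in cluster 2.7 to 3317 CPM in cluster 2.4.

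**Figure D3:**
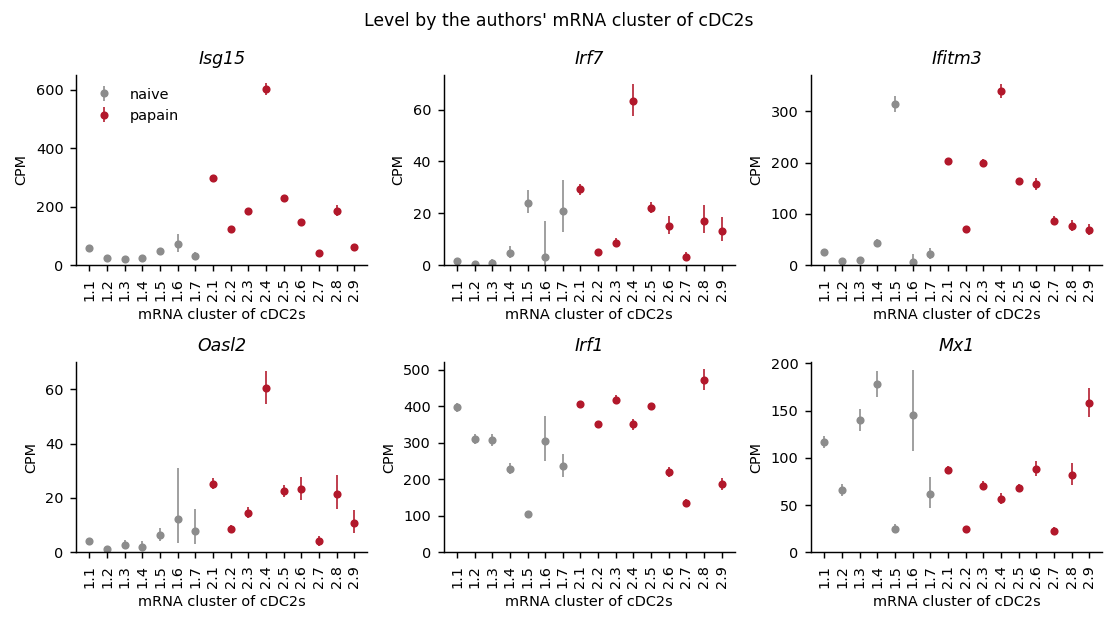
Each point is the CPM of 1 gene in 1 mRNA cluster of cDC2s, naive (grey, 1.1 to 1.7) or papain (red, 2.1 to 2.9), with its 95% Poisson interval. Cluster 2.4 is highest for *Isg15*, *Irf7*, *Ifitm3* and *Oasl2* but not for *Irf1* or *Mx1*, and cluster 1.5 is high for *Ifitm3* and low for *Irf1* and *Mx1*.

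The high *Isg15* level of cluster 2.4 was found in its cells of all 3 CD301b classes. *Isg15* was at 604 CPM in its 527 CD301blo cells, 590 in its 94 CD301bint cells and 603 in its 50 CD301bhi cells. Outside the cluster it was at 132 CPM in CD301blo, 195 in CD301bint and 220 in CD301bhi cells, so that CD301blo cells, the highest of the cDC2 classes as a whole, were the lowest outside cluster 2.4. *Irf7* was at 65.3 CPM in CD301blo cells inside and 16.2 outside the cluster, next to 17.1 and 16.8 CPM in CD301bint and CD301bhi cells outside it. The cluster had a median depth of 9131 UMIs and 49.0 CPM of summed B cell genes, the highest of the papain clusters, with *Cd79b* at 19.6 CPM, and their part in the result was not tested. *Ccr7* was at 4332 CPM there.

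In the naive library, cluster 1.6 (55 cells, median depth 5929 UMIs) was highest for 10 of the 28 members that reached 10 CPM in a naive cluster and had the highest summed level, 1463 CPM, next to 1441 CPM in cluster 1.1. Of all genes 31.7% were highest in this cluster, a share near that of the members. Of these 10 only *Irf9* (69.7 against 31.8 CPM) had an interval clear of the next cluster. *Ifit1* and *Oasl2*, at 12.1 CPM from 4 UMIs each, reached 10 CPM in no other naive cluster. They entered the count only through cluster 1.6. Cluster 1.5 (246 cells, 58.1% CD301blo) was highest for 6 and lowest for 4, beside 18.2% and 19.8% of all genes. *Ifitm3* was at 314 CPM and at 43.0 CPM or less in the other 6 clusters. *Ifitm2* (195 CPM) was also highest there, whereas *Irf1* (105 CPM), *Mx1* (24.8), *Usp18* (19.4) and *Herc6* (16.6) were lowest. This cluster held 363 CPM of summed monocyte and macrophage genes, against 8.03 to 40.8 CPM in the other naive clusters, and 1389 CPM of *Ccr7* against 2754 CPM or more. Summed pDC genes were at 248.8 CPM there against 93.2 to 177 CPM, and summed B cell genes at 72.4 CPM, against 247 CPM in cluster 1.7 and 23.5 CPM or less in the others. The part of these genes in the values was not tested. *Irf7* was at 24.1 CPM in cluster 1.5 and 20.9 CPM in cluster 1.7, with overlapping intervals, and at 4.54 CPM or less elsewhere. Of the cells in cluster 1.7, 56% had a *Cd3e* or *Trac* UMI.

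Read per cell, the difference between the libraries was not confined to the highest cells. The summed level of the 39 members had a median of 1113 CPM in naive and 2258 CPM in papain cDC1s, 946 and 1781 in CD301blo, 1042 and 1833 in CD301bint, 1236 and 1921 in CD301bhi cDC2s, and 1087 and 1278 in LCs. In cDC1s the lower quartile with papain (1636 CPM) was above the upper quartile of naive cells (1425 CPM). In LCs the quartile ranges overlapped for the most part, at 794 to 1486 CPM in naive and 899 to 1772 CPM in papain cells. *Irf1* made up 14.96% to 30.3% of the members' UMIs over the naive classes and 11.6% to 18.4% over the papain classes.

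**Figure D4:**
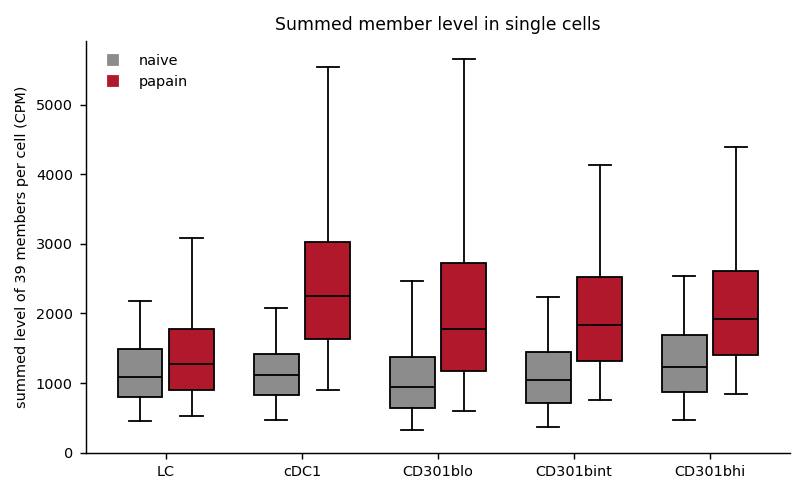
Boxes give the 25th, 50th and 75th percentile and whiskers the 5th and 95th percentile over cells of the summed CPM of the 39 members, by class, for the naive (grey) and papain (red) library. The median of papain cells is above that of naive cells in each class, with the smallest step in LCs, 1087 to 1278 CPM.

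A UMI of *Isg15* was found in 18.6% of naive LCs (interval 15.1% to 22.6%, Clopper-Pearson), 28.9% of cDC1s, 20.2% of CD301blo, 19.7% of CD301bint and 25.04% of CD301bhi cDC2s. With papain it was found in 52.0%, 72.8%, 55.6%, 60.4% and 63.4%. Expected at 8392 UMIs per cell, to take out differences in depth, the naive shares were 13.5% to 21.7% and the papain shares 40.2% to 66.9%. The thinning left out 47 to 127 naive and 28 to 264 papain cells per class. *Oasl1* was found in 30.6% of papain cDC1s (26.1% thinned) and in 3.29% to 5.31% of the other papain classes (1.90% to 4.01% thinned). No class here is known to lack these genes, so no background share can be set beside them.

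The 1% of papain cells with the most UMIs held 87.6% of the *Ifit2* and 81.7% of the *Ifit3* UMIs, against 17.5% for *Isg15* and 5.27% for *Irf1*. This share depends on the level of a gene, and among members of similar totals it was 57.6% for *Isg20*, 54.0% for *Gbp7*, 48.1% for *Cmpk2* and 42.3% for *Ifitm1*. For *Oas2* and *Ifi44*, which had 81 and 53 UMIs, it was 100%. In the naive library, 24 of 3042 cells had a UMI of *Ifit2* and 16 had at least 1 of *Ifit3*. Cells with at least 2 UMIs of the pair made up 14 of 3042 naive (0.460%, interval 0.252% to 0.771%) and 89 of 7306 papain cells (1.22%, interval 0.979% to 1.497%). Another 20 and 115 cells had exactly 1 and lie next to this limit, which was set after the data were seen. The 89 papain cells were spread over all classes, with 13 LCs (1.48%), 3 cDC1s (1.28%), 17 CD301blo (1.16%), 28 CD301bint (1.53%) and 28 CD301bhi cDC2s (0.968%), and the intervals of these shares overlap. Of the 14 naive cells 8 were CD301blo cDC2s and 4 LCs.

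These cells carried most of the other members at a high level. In papain cells with at least 2 UMIs of the pair, 36 of the other 37 members were higher than in cells with none, 34 of them over 2-fold, with a median of 6.03-fold. Among the 35 with at least 10 CPM in either group, 35 were higher and 33 over 2-fold, beside 48% and 3.98% of 7385 genes read in this way. In naive cells 35 were higher and 33 over 2-fold, with a median of 8.74-fold. Among the 35 with at least 10 CPM in either naive group, 34 were higher and 32 over 2-fold, beside 53.6% and 14.7% of 7960 genes. A member under 10 CPM in cells with none entered these counts only through the cells with at least 2 UMIs. In both libraries these were *Dhx58*, *Cmpk2*, *Isg20*, *Oas2*, *Oas3*, *Oasl1*, *Mx2*, *Gbp7*, *Rtp4* and *Ifi44*. In the naive library *Ddx58*, *Irf7*, *Ifit1*, *Oasl2* and *Xaf1* entered in this way as well. *Isg15* was at 1780 CPM in these papain cells, 572 in cells with 1 UMI and 186 in cells with none. *Ifit1* was at 546, 109 and 12.9 CPM, *Irf7* at 223, 58.9 and 15.4 CPM, and *Rtp4* at 146, 39.6 and 4.64 CPM. *Mx1*, lower with papain in LCs and cDC2s, was at 178 CPM in these papain cells and 61.1 CPM in cells with none, and at 294 and 100 CPM in the naive library. *Irf1* and *Ifitm2* were close in the papain library, at 352 against 346 and 202 against 173 CPM. In the naive library *Irf1* was lower in cells with at least 2 UMIs of the pair, at 182 against 308 CPM. *Ifitm2* was at 88.6 against 82.4 CPM there.

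**Figure D5:**
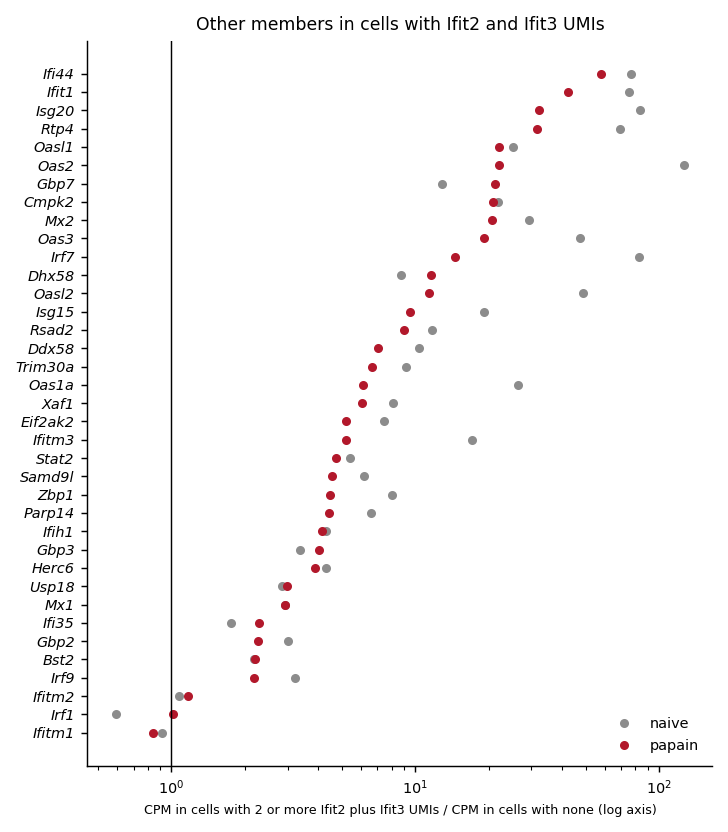
Each point is 1 of the 37 other members, as its CPM in cells with at least 2 UMIs of *Ifit2* and *Ifit3* together over its CPM in cells with none, on a log axis, for 14 naive (grey) and 89 papain cells (red). Most members lie right of 1, with a median of 6.03 in the papain library, where *Irf1*, *Ifitm1* and *Ifitm2* lie close to 1.

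The median depth of the 89 papain cells was 17670 UMIs, against 14900 UMIs in cells without a UMI of the pair, and that of the 14 naive cells 12924 against 13996 UMIs. Of the 89 papain cells 3 carried *Cd3e* or *Trac*, as did 3 of the 14 naive cells. Summed monocyte and macrophage genes were at 200 CPM in the 89 papain cells against 21.7 CPM in cells without a UMI of the pair, and migratory DC genes at 7012 against 8058 CPM. In the same papain groups B cell genes were at 20.1 against 9.67 CPM and T cell genes at 12.5 against 11.8 CPM. In the 14 naive cells monocyte and macrophage genes were at 163 against 60.7 CPM, T cell genes at 135 against 48.8, B cell genes at 60.6 against 29.8 and migratory DC genes at 5465 against 6922 CPM. The part of depth and of these genes in the result was not tested. Without the cells with at least 2 UMIs of the pair, 14 members were past 1.5-fold higher with papain in LCs, 23 in cDC1s, and 19, 19 and 16 in CD301blo, CD301bint and CD301bhi cDC2s.

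The members were also set beside the antibody signals, as Spearman correlations over cells of 1 class with the summed members thinned to 8392 UMIs. Cells of a library are not replicates, and the 12 signals are scaled to each other within a cell. The antibody list gives CD11b and CD24 the same barcode sequence, so the signals of this pair are uncertain. In the naive library all 60 values lay between -0.20 and 0.20. With papain 4 of 60 were at 0.3 or beyond in size. CD64, an Fc receptor, had a rho of 0.39 (n = 1206 cells) and CD8a of -0.31 in CD301blo cDC2s, and in LCs CD301b had 0.34 and CD326 (EpCAM) -0.36 (n = 771 cells). In papain LCs, cDC1s, CD301bint and CD301bhi cDC2s CD64 had 0.08, 0.28, 0.25 and 0.23. CD8a had -0.12, 0.13, -0.24 and -0.22 in the same order.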

How the data were processed

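CITEseq data of 1 naive and 1 papain library were used, grouped by the deposited treatment labels and by the class and cDC2 mRNA cluster the authors gave each cell. Per the submitters' processing notes, Cell Ranger 3.0.1 and Partek were used with build mm10. The cell filters are not given in the sources used here. The expression values the authors deposited are on a log2 scale, as log2 of CPM plus 1 per cell. Among values of up to 50 UMIs, 100% were whole multiples of 1 UMI within 0.02, and UMIs were recovered from these steps. The antibody values the authors deposited are on a natural log (ln) scale, relative to the geometric mean of the 12 antibodies in the cell. The numbers of expressed genes per cell are deposited counts. Depth was 3637 to 57378 UMIs per naive and 2682 to 57150 UMIs per papain cell.

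UMIs were summed by class and library. CPM and ratios were computed without a pseudocount, with exact Poisson and conditional 95% intervals, and a side with 0 UMIs was set to 3 UMIs. A member was counted at 1.5-fold where its higher group reached 10 CPM. The genes named were the 5 highest and 5 lowest ratios of each comparison, the 5 highest levels of each library, and all members by function. The members and lists were chosen by name, with earlier results of these data known. With 1 library per condition no p-value was computed. The ratio and its interval were run on simulated Poisson counts. This is the model the interval assumes, so the run checks the computation and not the spread between cells or libraries. The 429 naive and 290 papain cells without antibody data had no class and were kept apart, and no doublet caller was run. Python 3.11.15, NumPy 2.4.6, SciPy 1.17.1, pandas 2.3.3 and Matplotlib 3.10.9 were used. The alternatives tried were an added pseudocount, equal weight per cell, scaling to the median ratio, leaving out cells by T cell genes, depth, gene number, *Ifit2* and *Ifit3* UMIs, highest UMIs of a gene or cluster, equal weight of the CD301b classes, and other minimum levels and folds.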

Additional observations from a re-analysis of the deposited data

Results flagged for a closer look

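In 429 naive and 290 papain cells without antibody data, which no comparison above used, 15 members had at least 10 CPM with papain and a ratio of at least 2-fold over the naive library whose counting interval excluded 1. These were 15 of 31 members with at least 10 CPM, beside 6.51% of 8121 genes, and 1 member was past 2-fold lower in the same way, beside 7.65%. Of the 15 *Ifit3*, *Oas3*, *Dhx58*, *Oasl2*, *Rtp4* and *Isg20* were under 10 CPM in the naive cells. They entered the count only through the papain library. The log2 ratios were 2.59 for *Ifit3*, 2.48 for *Rtp4*, 2.35 for *Ifitm3*, 2.26 for *Irf7*, 1.94 for *Ifit1*, 1.75 for *Isg20*, 1.73 for *Xaf1*, 1.44 for *Oas3*, 1.38 for *Isg15*, 1.23 for *Gbp7*, 1.16 for *Oasl2*, 1.13 for *Zbp1*, 1.08 for *Samd9l*, 1.04 for *Dhx58* and 1.02 for *Ddx58*. The lower one was *Mx1*, at 25.2 against 73.4 CPM (log2 -1.54, interval -1.93 to -1.17), and *Irf1* (log2 -0.88), *Stat2* (-0.57) and *Gbp2* (-0.43) also had intervals below 0. *Ifit3*, *Isg20* and *Gbp7* stayed under 10 CPM in every class of DCs but stood at 26.4, 28.6 and 34.9 CPM in these papain cells. Summed T cell genes were at 676 CPM in the naive and 1687 CPM in the papain cells without antibody data. Summed monocyte and macrophage genes were at 63.4 and 183 CPM, NK cell genes at 2.88 and 53.8, B cell genes at 127 and 152, and migratory DC genes at 6835 and 3995 CPM, and their part in these values was not tested.

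*Irf1* differed between the libraries in opposite directions in 2 classes, with a log2 ratio of papain over naive of 0.50 in CD301blo cDC2s and -0.24 in LCs, both with counting intervals that exclude 0. In naive cDC2s *Irf1* was at 105 CPM in cluster 1.5, of which 58.1% were CD301blo, and at 229 CPM or more in the other clusters. The difference between the classes and its cause were not tested.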

How the results depend on the processing

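No paired analysis was possible because each condition is a single library. Over 188 results, 1814 alternative values were computed, of which 1506 stayed, 303 moved and 5 reversed, and the cause was not tested. A count stayed when within 1.5 times the main count, and a ratio or share when inside the main value's 95% counting interval. The minimum level and the fold set the counts. For papain against naive, a minimum of 50 CPM left 7 members higher and 1 lower in LCs, 12 higher in cDC1s, 10 in CD301blo, 12 in CD301bint and 10 in CD301bhi cDC2s, of 12, 15, 13, 14 and 14 read, beside 18.0%, 11.3%, 15.9%, 14.6% and 13.1% of all genes higher and 8.15% lower in LCs. At 2-fold 8 were higher in LCs, 10 in CD301blo, 11 in CD301bint and 11 in CD301bhi cDC2s, with 0 lower in the latter pair, beside 4.35%, 2.73%, 2.46% and 2.27% of all genes higher, and 4.82% and 3.78% lower in the pair. At 3 UMIs, where 37 to 39 members and more low genes were read, 23 were higher and 4 lower in LCs, 26 higher and 2 lower in CD301bhi cDC2s, and 1, 1 and 2 lower in cDC1s, CD301blo and CD301bint cDC2s, beside 16.5% of all genes higher and 21.97% lower in LCs 14.6% and 19.2% in CD301bhi cDC2s, and 23.9%, 26.9% and 22.9% lower in the other 3. With 10 CPM added 0 were lower in CD301bint and CD301bhi cDC2s (6.41% and 5.52% of all genes). With equal weight per cell 1 was lower in LCs and 1 in CD301blo cDC2s, and 1 was lower in the latter without the deepest 5% of cells and without mRNA clusters 1.5 and 2.4 or 1.5 and 1.7. With the UMIs of the 2 highest cells of each gene and class set aside 1 was lower in LCs, where *Ifitm1* reversed to 0.26.

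Between classes the shares of all genes higher and lower stand in brackets where the level or fold changed, and at 3 UMIs 39 members were read. For LCs against cDC2s in the naive library, 1 was higher and 2 lower with 10 CPM added (5.26% and 8.74%), 2 higher at 50 CPM (7.65%), 11 lower at 3 UMIs (19.2%), and 2 higher and 2 lower at 2-fold (4.06% and 6.50%), and *Ifitm1* reversed to -1.80 without the 2 highest cells. With papain 1 was higher and 11 lower at 3 UMIs (17.2% and 12.1%) and 2 lower at 2-fold (2.16%). For cDC1s against cDC2s in the naive library, 1 was higher under a stricter cell filter, 1 higher and 2 lower at 50 CPM (13.1% and 17.1%), 4 higher and 14 lower at 3 UMIs (18.6% and 22.8%), 4 higher without clusters 1.5 and 2.4 or 1.5 and 1.7, and 1 without the 2 highest cells. With papain 3 were higher with 10 CPM added (5.74%), 3 at 50 CPM (9.92%) and 3 at 2-fold (4.18%), with 1 lower at 2-fold (6.72%) and 9 lower at 3 UMIs (20.7%). For CD301bhi against CD301blo cDC2s in the naive library, 1 was lower without the deepest 5% of cells, 1 at 50 CPM (5.06%), 1 without cells with at least 2 *Ifit2* and *Ifit3* UMIs, 1 without clusters 1.5 and 1.7 and 1 without the 2 highest cells, 6 were higher and 16 lower at 3 UMIs (8.77% and 25.3%), and 1 higher at 2-fold (0.829%). With papain 0 were lower with 10 CPM added (1.87%), at 50 CPM (2.80%), at 2-fold (1.41%) and without clusters 1.5 and 2.4, 11 were lower at 3 UMIs (16.8%), and 1 was higher at 50 CPM (4.75%), 1 at 2-fold (0.934%) and 4 without clusters 1.5 and 2.4. Under the other settings 3.47% to 17.4% of all genes were higher and 3.30% to 23.6% lower over the comparisons. Without clusters 1.5 and 2.4 the CD301bhi against CD301blo, papain ratios reversed to 0.057 for *Irf7*, 0.26 for *Oasl2* and 0.27 for *Rtp4*. Leaving out clusters, the 2 highest cells or the cells with *Ifit2* and *Ifit3* UMIs was chosen after seeing the data. The log2 ratio of the summed level per cell was 1 in CD301bint cDC2s when thinned and 0.80 in CD301bhi cDC2s without the 5 highest members.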
